A study of Mus musculus with 6 samples.

Results

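The nuclear-encoded subunits of the mitochondrial respiratory chain were taken as the protein-coding genes with symbols of the Nduf (a, b, c, s and v series), Sdh, Uqcr, Cox4 to Cox8 and Atp5 families. Ndufa4l2 and Cox4i2, hypoxia-responsive relatives of subunits that are abundant in pericytes, were left out of the set and are given as separate values. The files list 82 such genes among 21603 in all: 36 of complex I, 4 of complex II, 8 of complex III, 17 of complex IV and 17 of complex V. The rule itself uses gene symbols and no measured value.

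The respiratory chain passes electrons from NADH and succinate to oxygen and uses the energy to pump protons across the inner mitochondrial membrane. Complex I (NADH dehydrogenase), complex III (cytochrome bc1) and complex IV (cytochrome c oxidase) pump the protons, complex II (succinate dehydrogenase) feeds in electrons from the citric acid cycle, and complex V (ATP synthase) makes ATP from the gradient. Most subunits are encoded in the nucleus, translated on cytosolic ribosomes and imported, and a small set is encoded by mitochondrial DNA and translated on mitochondrial ribosomes. Both sets are needed in matched amounts for complexes I, III, IV and V.

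Ribosome-bound RNA was sequenced from the lungs of C57BL/6 mice at postnatal day 8, with 3 samples from controls and 3 from Yap1,Wwtr1 iPCKO animals, after tamoxifen in the first days of life. All mice carried Pdgfrb(BAC)-CreERT2, which is driven by the Pdgfrb promoter and marks pericytes. They also carried 1 floxed Rpl22 allele, which after recombination makes RPL22, a protein of the large ribosomal subunit, with an HA epitope, and ribosomes of recombined cells were pulled down through this epitope. Controls were heterozygous for both targeted genes (labelled Yap1+/-;Wwtr1+/-) and iPCKO mice were homozygous for the floxed alleles (labelled Yap1-/-;Wwtr1-/-), so the controls had also lost a copy of each gene. Yap1 and Wwtr1 encode YAP and TAZ, coactivators of the TEAD transcription factors. Whether each sample came from 1 mouse is not stated in the labels, so p-values measure the spread between samples.

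The values were RPKM (reads per kilobase of exon and per M mapped reads), a level per length. Whole-read steps in low values implied 17.4 to 34.6 M reads in controls and 14.2 to 39.6 M in iPCKO samples. Differences between groups were tested with limma on log2(RPKM + 0.1) over the 12034 genes that reached 1 RPKM in 3 or more samples, and a gene was called past an adjusted p-value of 0.01 and a log2 fold change of 0.5 in either direction. Yap1, which checks the labels, was at 12.4 ± 0.86 RPKM in controls and 5.61 ± 0.31 RPKM in iPCKO samples (SD, n = 3 each; log2 fold change -1.12, limma adjusted p = 0.00017). Wwtr1 was at 60.4 ± 9.48 and 62.0 ± 1.63 RPKM (adjusted p = 0.82), a value over all exons that does not single out the deleted part of the gene. The pericyte marker Pdgfrb ranged from 1369 to 1666 RPKM in controls and from 1193 to 1447 RPKM in iPCKO samples, and of 10 pericyte markers 3 were called higher (Cspg4, Kcnj8 and Abcc9) and 2 lower (Notch3 and Rgs5).

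The start regions of 4 subunit genes are shown because these genes carried the clearest differences: Ndufs5, the subunit that was called, Cox5a and Cox7b, which came next by adjusted p-value, and Atp5s, with the largest negative fold change. Each line gives 250 bases before to 50 bases after the RefSeq start on GRCm38.p6, read 5′ to 3′ on the strand of the gene, at chr4:123718137-123718436 (minus strand) for Ndufs5, chr9:57520982-57521281 (plus) for Cox5a, chrX:106015450-106015749 (plus) for Cox7b and chr12:69724695-69724994 (plus) for Atp5s. Capitals mark matches to the motifs searched below.
Ndufs5: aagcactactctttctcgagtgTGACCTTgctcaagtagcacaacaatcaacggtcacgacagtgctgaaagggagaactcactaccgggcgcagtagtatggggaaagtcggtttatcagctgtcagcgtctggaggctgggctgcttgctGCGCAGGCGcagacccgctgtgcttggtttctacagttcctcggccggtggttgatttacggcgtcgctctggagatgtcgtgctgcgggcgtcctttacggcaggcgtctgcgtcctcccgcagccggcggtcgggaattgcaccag
Cox5a: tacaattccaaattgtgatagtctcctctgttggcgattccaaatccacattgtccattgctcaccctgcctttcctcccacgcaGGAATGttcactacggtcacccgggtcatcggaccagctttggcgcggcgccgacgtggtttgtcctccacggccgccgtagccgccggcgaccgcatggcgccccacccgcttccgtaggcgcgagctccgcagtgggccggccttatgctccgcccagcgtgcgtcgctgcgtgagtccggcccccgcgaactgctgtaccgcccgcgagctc
Cox7b: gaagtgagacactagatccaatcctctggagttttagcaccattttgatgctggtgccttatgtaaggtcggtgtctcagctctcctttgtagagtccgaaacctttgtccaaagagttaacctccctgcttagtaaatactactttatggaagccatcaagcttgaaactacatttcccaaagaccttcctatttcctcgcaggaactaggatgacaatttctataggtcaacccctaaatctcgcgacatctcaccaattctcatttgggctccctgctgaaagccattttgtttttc
Atp5s: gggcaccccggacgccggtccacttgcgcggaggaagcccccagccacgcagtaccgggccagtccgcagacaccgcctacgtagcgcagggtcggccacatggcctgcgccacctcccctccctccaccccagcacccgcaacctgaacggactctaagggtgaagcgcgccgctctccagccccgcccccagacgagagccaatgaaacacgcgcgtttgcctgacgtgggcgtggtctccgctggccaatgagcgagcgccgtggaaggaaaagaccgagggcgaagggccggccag
The Ndufs5 region held a match to the NRF1 motif and, farther from the start, a reverse-strand match to the ERR motif. The Cox5a region held a TEAD motif match, and those of Cox7b and Atp5s held no match to any of the motifs. NRF1 and GABP (an ETS factor) are the classical activators of nuclear genes for the respiratory chain, and ERR factors are partners of the coactivator PGC-1alpha.

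Regions of this length were found in the RefSeq table for 68 of the 82 genes. Searched on both strands, the NRF1 motif GCGCANGCG was in 19 of the 68 regions (27.9%), against 6.5% of the 27025 regions in the table. The ETS motif CCGGAAG was in 15 (22.1%, against 9.1%), the YY1 motif AAGATGG in 10 (14.7%, against 6.5%) and the ERR motif AAGGTCA in 8 (11.8%, against 4.7%). The TEAD motif GGAATG was in 7 (10.3%, against 14.6%), as was the TATA motif TATAAA (10.3%, against 14.2%). None of these motifs contains another, and a match describes the letters and not binding.

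Levels spanned a wide range within each complex. Of the 82 genes, 77 passed the filter on low values, and in controls their mean levels ran from 2.63 RPKM for Atp5s to 193.6 RPKM for Cox8a, with a median of 42.0 RPKM. Cox8a, a small structural subunit of complex IV, was at 230.0, 170.6 and 180.3 RPKM in controls and at 255.2, 200.3 and 210.8 RPKM in iPCKO samples, and the groups overlapped. Ndufb9, an accessory subunit, was the most abundant member of complex I (93.8 ± 12.2 RPKM in controls and 99.7 ± 9.18 RPKM in iPCKO samples). Sdhd, a membrane anchor, led complex II (47.4 ± 5.32 and 57.6 ± 5.36 RPKM), Uqcrc1, a core protein, led complex III (90.9 ± 2.69 and 98.2 ± 4.01 RPKM), and Atp5a1, the alpha subunit of the catalytic head, led complex V (159.7 ± 13.8 and 173.0 ± 7.13 RPKM; SD, n = 3 each). The median control level per complex was 35.2 RPKM for I, 37.3 for II, 70.5 for III, 73.7 for IV and 49.2 for V.

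The 5 genes that failed the filter all belong to complex IV and are isoforms known from muscle or testis. Cox7b2 and Cox8c were listed at 0 in all samples. Cox6a2 ranged from 0.088 to 0.53 RPKM and Cox8b from 0.080 to 0.65 RPKM over the 6 samples, and the groups overlapped for both. Cox7a1, a heart and skeletal muscle isoform, was at 1.25, 1.42 and 0.87 RPKM in controls and at 0.65, 0.76 and 0.39 RPKM in iPCKO samples. All 3 iPCKO values lay below all 3 control values, and this gene was not tested.

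Between control and iPCKO samples the chain differed by small positive amounts over most of its genes, and 1 of them passed the thresholds. Of the 77 tested subunits Ndufs5 rose in iPCKO samples and 0 fell, against 6.79% of all tested genes past the thresholds, 4.11% higher and 2.68% lower. At an adjusted p-value below 0.05 with no limit on the fold, 3 subunits passed, all higher. Of all tested genes 15.2% passed in either direction, and 8.63% of all tested genes passed as higher. At an unadjusted p below 0.05, 13 subunits passed, 12 higher and 1 lower. Of all tested genes 29.7% passed in either direction, and 16.1% of all tested genes passed as higher.

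**Figure D1:**
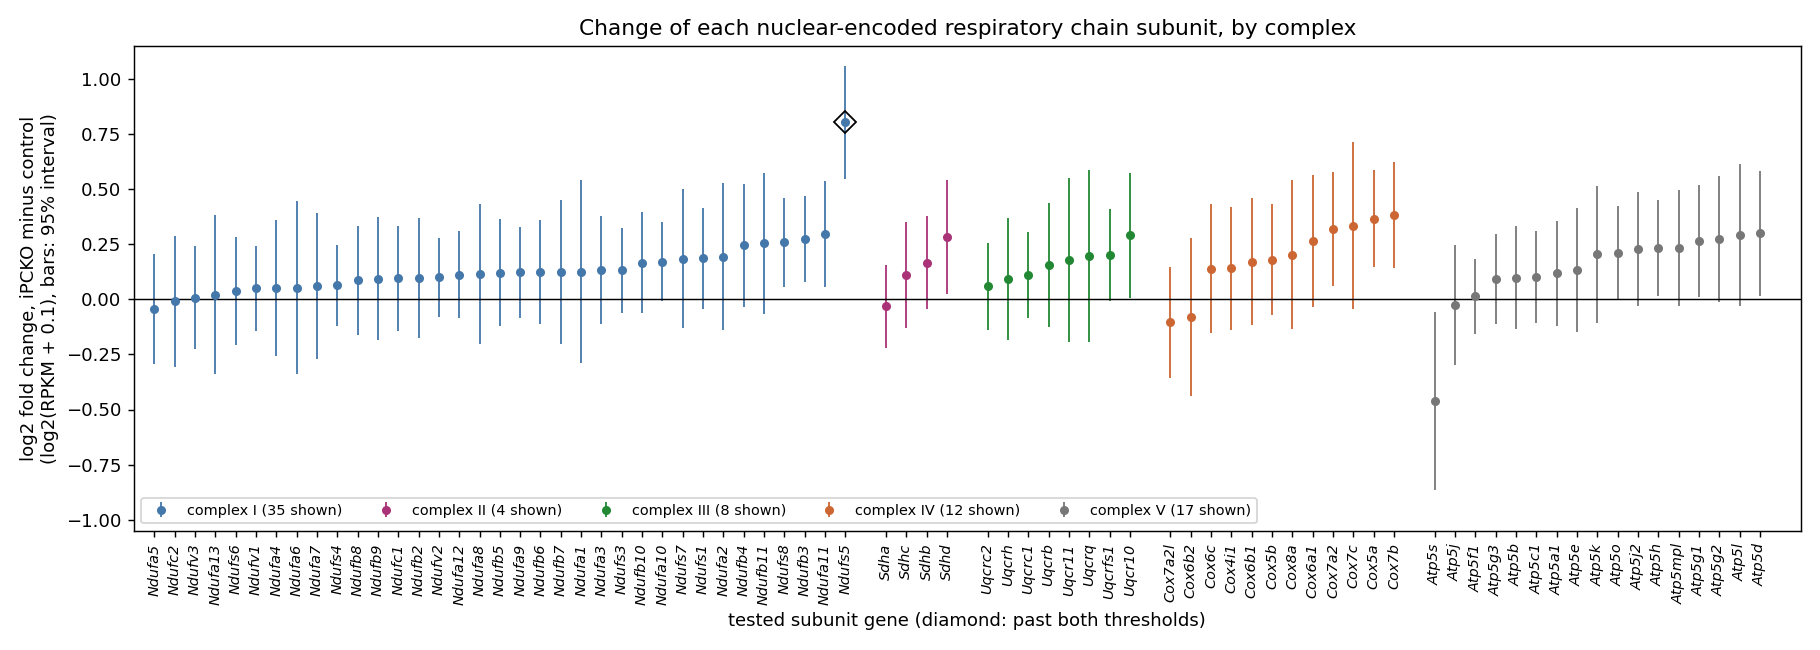
The log2 fold change (iPCKO minus control, on log2(RPKM + 0.1)) of 76 of the 77 tested subunits with its 95% interval, sorted within each complex. Most points lie a little above 0, with Ndufs5 at 0.80 and Atp5s at -0.46 apart from the rest.

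A larger share of subunits than of all tested genes had a fold change above 0, and the subunits were not tested as a set. They vary together over the 6 samples, with a median Pearson r of 0.86 with the rest of the chain. Their exonic sequence is also shorter, with a median of 1675 nt against 4548 nt for all tested genes. With the trend on exonic length removed, 53 of 77 were above 0. The log2 fold change was above 0 for 70 of 77 subunits (90.9%), against 50% of all tested genes, and its median was 0.13, against a median over all tested genes within 0.001 of 0. The median standard error of a subunit was 0.11, close in size to the median change, and 16 subunits had every iPCKO sample above every control sample, against 18.3% of all tested genes. One subunit, Atp5s, had every iPCKO sample below every control sample, against 17.1% of all genes. The median by complex was 0.12 for complex I (34 of 36 above 0), 0.14 for complex II (3 of 4), 0.17 for complex III (8 of 8), 0.19 for complex IV (10 of 12) and 0.20 for complex V (15 of 17). All 5 medians stayed above 0 in every alternative run, but their size depended on the setting. With the trend of each sample on exonic length removed they were 0.041, 0.098, 0.035, 0.088 and 0.10 for complexes I to V. With a sample left out they ran from 0.066 to 0.17, 0.086 to 0.20, 0.080 to 0.25, 0.11 to 0.31 and 0.14 to 0.28. The lowest of each range came without iPCKO 1, and the highest without control 1 for complexes I to IV and without iPCKO 2 for complex V. The complexes were not tested against each other.

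Averaged over the subunits within each sample, the same values gave a shift between group means of the size of the spread between samples. The mean log2(RPKM + 0.1) over the 77 subunits was 5.43, 5.25 and 5.22 in controls 1 to 3 and 5.57, 5.38 and 5.40 in iPCKO samples 1 to 3. Control 1 lay above iPCKO 2 and iPCKO 3, so the groups overlapped. The group means differed by 0.15, with an SD of 0.12 in controls and 0.10 in iPCKO samples. Over all 12034 tested genes the same mean was also higher in iPCKO samples, by 0.039, without overlap. It was 3.17, 3.16 and 3.15 in controls and 3.20, 3.21 and 3.19 in iPCKO samples. For complex IV the values were 6.05, 5.80 and 5.78 in controls and 6.20, 5.99 and 6.02 in iPCKO samples, and control 1 again lay above iPCKO 2 and 3. Complex V had 5.46, 5.34 and 5.30 in controls and 5.60, 5.41 and 5.49 in iPCKO samples. Complex I had 5.15, 4.97 and 4.92 in controls and 5.27, 5.09 and 5.09 in iPCKO samples.

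**Figure D2:**
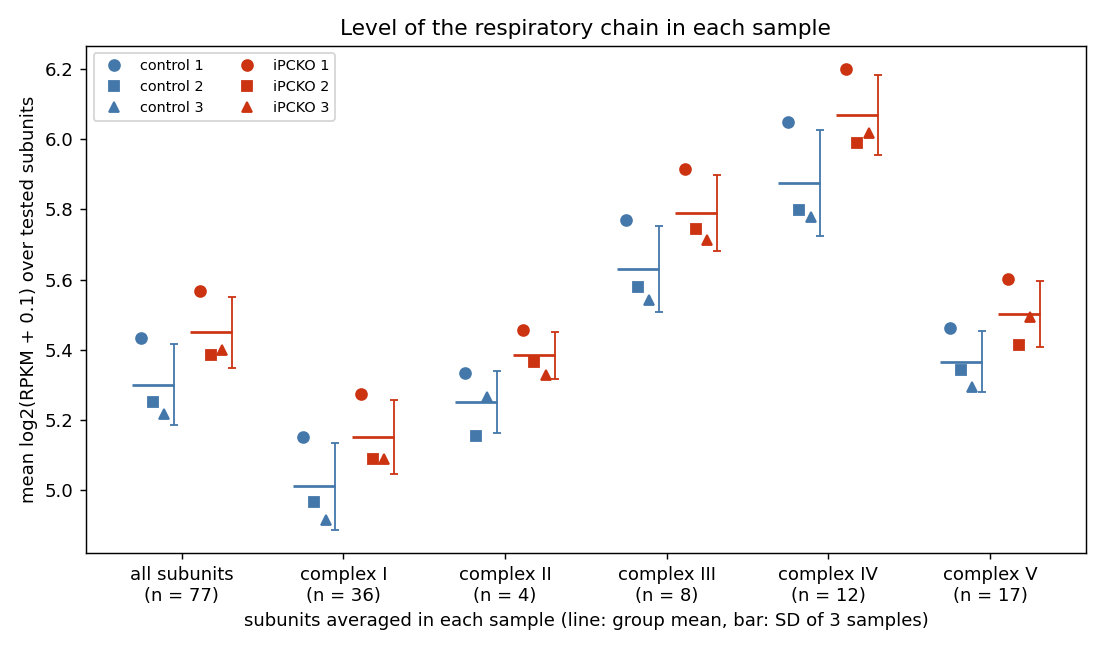
Mean log2(RPKM + 0.1) over the tested subunits in each of the 6 samples, for the whole chain and for each complex, with the group mean (line) and SD (bar, n = 3). Replicate 1 (circles) is the highest sample of both groups in each column, and control 1 lies above 1 or more iPCKO samples in each.

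Replicate 1 stood apart in both groups. Control 1 had the highest value of its group for 62 of the 77 subunits and iPCKO 1 for 63. The excess was larger for genes with short exonic sequence: for the 38 shorter genes (median 1031.5 nt) the mean deviation from the group mean was 0.17 in control 1 and 0.15 in iPCKO 1, and for the 39 longer genes (median 2634 nt) it was 0.096 and 0.088. Across the 77 genes the deviation correlated with log2 exonic length at Pearson's r of -0.46 in control 1 and -0.36 in iPCKO 1, a description over genes that share a library. The log2 fold change itself had a median of 0.17 in the shorter and 0.12 in the longer genes. With the trend of each sample on exonic length removed, 53 of 77 log2 fold changes were above 0 and their median was 0.065. Without control 1 and iPCKO 1, a choice made after seeing the data, 71 of 77 were above 0 and the median was 0.14.

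**Figure D3:**
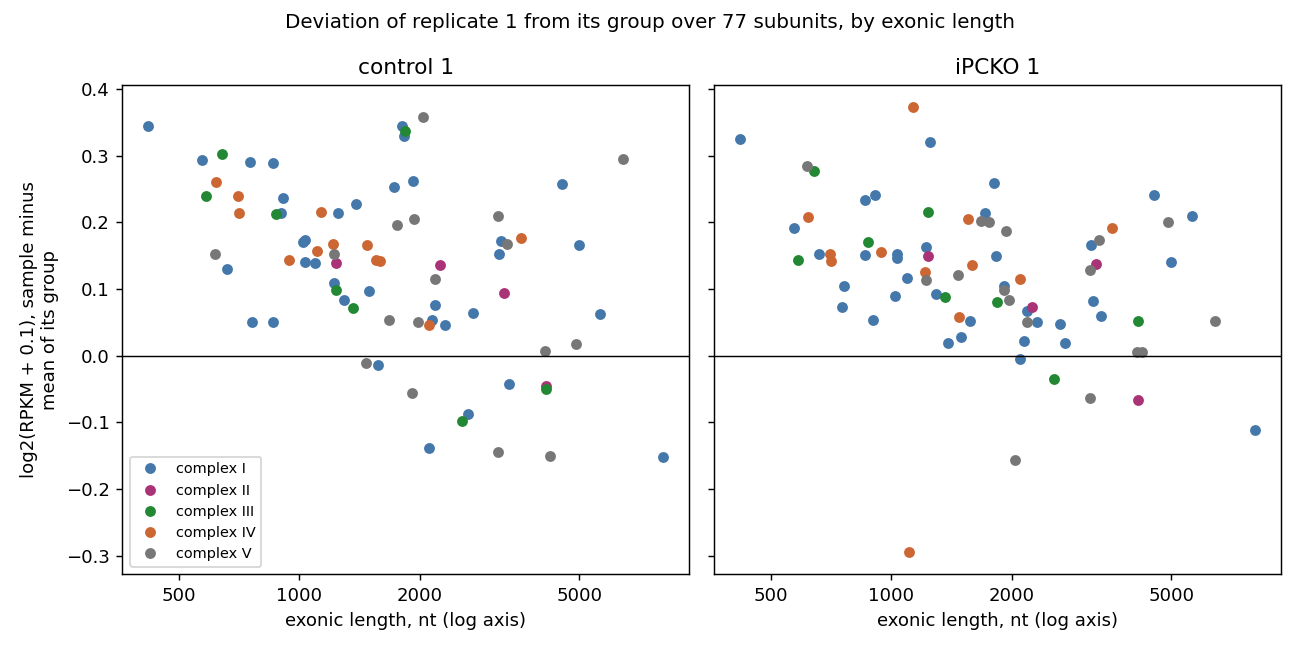
Deviation of control 1 (left) and iPCKO 1 (right) from the mean of their group on log2(RPKM + 0.1) for each tested subunit, against exonic length on a log axis. Most points lie above 0, highest among the short genes, and the points below 0 are mostly long genes.

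Ndufs5 encodes a small accessory subunit of complex I on the intermembrane space side. The gene (ENSMUSG00000028648) is at chr4:123712710-123718202 on the minus strand of GRCm38. Its level was 19.7, 19.4 and 18.0 RPKM in controls and 39.2, 31.2 and 30.2 RPKM in iPCKO samples. The lowest iPCKO value was well above the highest control value, with an iPCKO mean at 176% of that in controls. On the log2 scale the difference was 0.80 ± 0.11 (SE, n = 3 per group; 95% interval 0.55 to 1.06; limma adjusted p = 0.0021). The adjusted p was 0.013 without control 3 and 0.038 without the filter on low values, so the call was lost in both. Of its 75-base stretches, 15.7% also occur in BC002163, a processed pseudogene at chr16:42955631-42955949 that is not among the listed genes, and how reads that fit both were counted is not stated, so the value is uncertain. The next largest difference in complex I was that of Ndufa11 (log2 fold change 0.30, adjusted p = 0.097).

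Other complex I subunits with every iPCKO sample above every control sample included Ndufa10, Ndufa11, Ndufb3, Ndufs8 and Ndufv2. Ndufv1, which binds NADH and the flavin, was at 30.7, 33.1 and 34.1 RPKM in controls and 34.8, 34.3 and 32.1 RPKM in iPCKO samples, and the groups overlapped. Ndufs1, the largest iron-sulphur subunit, was at 13.5, 16.1 and 15.6 RPKM against 15.8, 17.3 and 18.3 RPKM, also overlapping. Ndufa5 had the lowest fold change of the complex (26.1 ± 2.40 and 25.3 ± 2.73 RPKM, log2 fold change -0.045, adjusted p = 0.82). Ndufa4, which was assigned to complex I and is now placed in complex IV, was at 63.3 ± 11.0 and 65.0 ± 4.79 RPKM.

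In complex II, Sdha and Sdhb form the catalytic part that oxidises succinate, and Sdhc and Sdhd anchor it. Sdha was at 37.0, 37.5 and 40.1 RPKM in controls and 35.6, 38.0 and 38.3 RPKM in iPCKO samples, with overlapping groups and a log2 fold change of -0.032 ± 0.082 (SE; 95% interval -0.22 to 0.16). Sdhb was at 39.9, 35.0 and 34.2 RPKM against 42.9, 39.9 and 39.6 RPKM. Its lowest iPCKO value was below control 1. Sdhd had the largest difference of the complex, at 52.0, 41.5 and 48.6 RPKM against 63.7, 53.7 and 55.3 RPKM, with no overlap (log2 fold change 0.28, adjusted p = 0.13).

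All 8 complex III subunits had a fold change above 0 and none passed the thresholds. Uqcr10, a small accessory subunit, had the largest (0.29, adjusted p = 0.16), with 83.4, 63.8 and 66.3 RPKM in controls and 95.4, 83.1 and 81.3 RPKM in iPCKO samples. Control 1 lay above iPCKO 2 and 3. Uqcrfs1, the Rieske iron-sulphur protein that passes electrons to cytochrome c1, was at 46.0, 41.2 and 44.3 RPKM against 53.6, 51.2 and 46.7 RPKM, without overlap (log2 fold change 0.20, adjusted p = 0.18). Uqcrc2, a core protein, had the smallest fold change (0.058), at 38.0 ± 2.65 and 39.6 ± 1.12 RPKM.

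Complex IV held the other subunits with an adjusted p-value below 0.05. Cox7b, a small subunit encoded on the X chromosome at chrX:106015700-106022450, was at 40.9, 34.1 and 34.7 RPKM in controls and 51.9, 43.7 and 47.3 RPKM in iPCKO samples, without overlap. Its log2 fold change was 0.38 ± 0.11 (SE, limma adjusted p = 0.044), below the limit of 0.5. Cox5a, a matrix-side subunit at chr9:57521274-57532426, was at 49.8, 48.8 and 46.2 RPKM in controls and 67.4, 56.1 and 63.7 RPKM in iPCKO samples, also without overlap (0.37 ± 0.096, adjusted p = 0.036). Without iPCKO 1 the adjusted p was 0.098 for Cox7b and 0.078 for Cox5a. Over all runs with a sample left out, the limma adjusted p for Cox7b ran from 0.022 (without control 1) to 0.16 (without control 3). For Cox5a it ran from 0.039 (without iPCKO 2) to 0.14 (without control 3). Cox4i1, a structural subunit, was at 150.3, 127.6 and 131.2 RPKM against 172.8, 141.9 and 137.3 RPKM, and Cox5b at 133.9, 119.2 and 111.9 RPKM against 151.1, 133.0 and 129.3 RPKM. The groups overlapped for both.

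Within the Cox6a, Cox6b and Cox8 sets of complex IV, the ubiquitous form made up most of the level in all samples. Cox6a1 was at 139.0 ± 20.8 and 166.6 ± 16.1 RPKM, Cox6b1 at 169.8 ± 22.9 and 190.6 ± 16.7 RPKM, and Cox6b2, the testis form, at 2.92 ± 0.31 and 2.77 ± 0.50 RPKM (SD, n = 3 each). Cox7a2 was at 91.9, 78.6 and 79.7 RPKM in controls and 115.6, 92.9 and 103.8 RPKM in iPCKO samples. All iPCKO values lay above the controls (log2 fold change 0.32, adjusted p = 0.098). Cox7a2l was at 71.5, 60.9 and 59.4 RPKM against 61.7, 63.5 and 53.2 RPKM. It had the lowest fold change of the tested complex IV subunits (-0.10, limma adjusted p = 0.58). As a share of the summed RPKM of Cox7a1, Cox7a2 and Cox7a2l, Cox7a2 took 55.8%, 55.8% and 57.0% in controls and 65.0%, 59.1% and 66.0% in iPCKO samples, a description with no test.

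In complex V, Atp5a1 and Atp5b form the catalytic head. Atp5b was at 135.7, 155.9 and 161.4 RPKM in controls and 161.9, 161.0 and 160.9 RPKM in iPCKO samples, and control 3 lay above 2 of the 3 iPCKO samples. Atp5a1 was at 144.1, 164.8 and 170.2 RPKM against 165.4, 179.6 and 173.9 RPKM, also overlapping. Atp5d, the delta subunit of the central stalk, had the largest fold change of the complex (0.30, adjusted p = 0.15), with 45.8, 38.1 and 35.8 RPKM in controls and 55.7, 44.4 and 47.3 RPKM in iPCKO samples. The 3 genes for the membrane ring subunit c encode the same mature protein. Atp5g1 was at 10.1, 10.2 and 9.58 RPKM against 13.8, 10.4 and 12.0 RPKM, without overlap. Atp5g2 was at 55.3 ± 5.12 and 67.1 ± 9.60 RPKM and Atp5g3 at 45.0 ± 3.20 and 47.9 ± 2.40 RPKM, both overlapping. Of the 82 genes, 11 share more than 10% of their 75-base stretches with another annotated gene, mostly pseudogenes, and Atp5g2 shares the most (35.8%), so their levels are uncertain.

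Atp5s, a low-level gene at chr12:69724950-69744660 whose product is known as coupling factor B, went the other way. It was at 3.35, 2.28 and 2.27 RPKM in controls and 1.65, 2.04 and 1.89 RPKM in iPCKO samples. Every iPCKO value lay below every control value, by a narrow margin for controls 2 and 3. The log2 fold change was -0.46 ± 0.18 (SE, limma adjusted p = 0.12) and was not called.

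**Figure D4:**
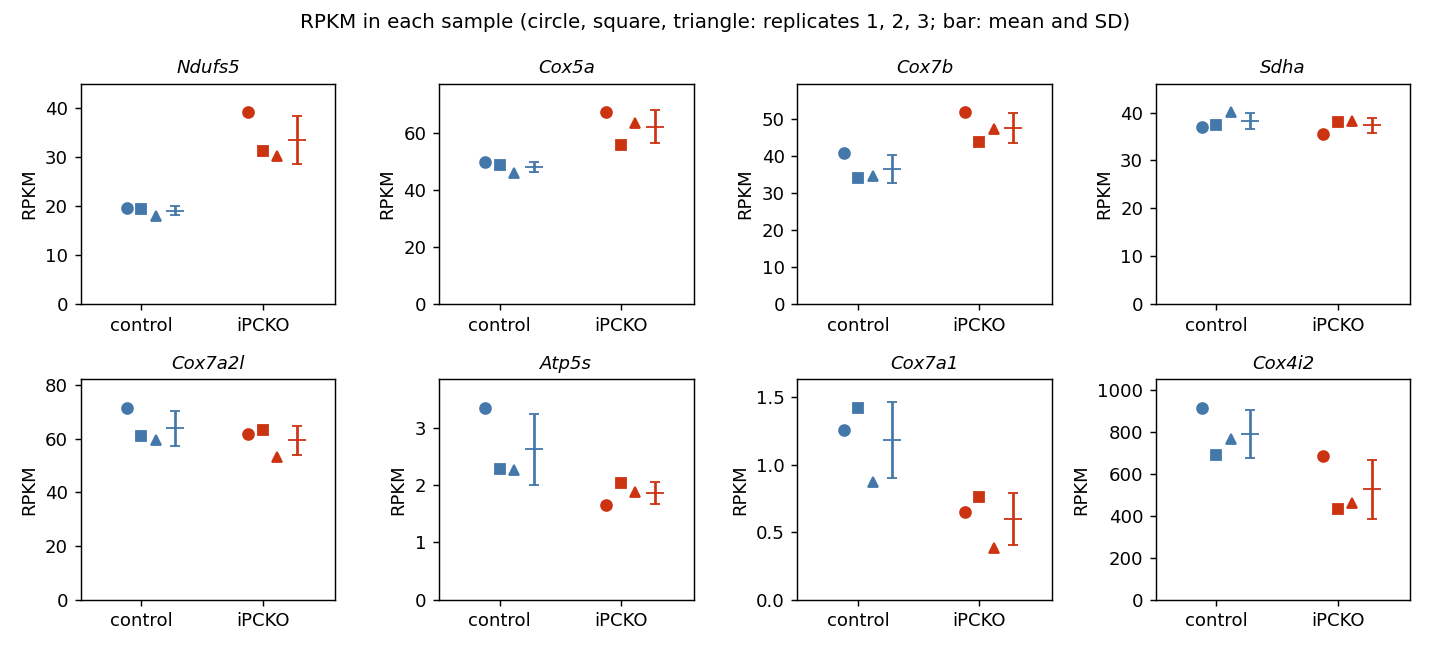
RPKM of 8 genes in each of the 6 samples, on axes that start at 0, with the mean and SD of each group (n = 3). Ndufs5, Cox5a and Cox7b have all iPCKO samples above the controls, Sdha and Cox7a2l overlap, and Atp5s, Cox7a1 and Cox4i2 have all iPCKO samples below the controls.

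Subunits differed in how closely they followed the rest of the chain over the 6 samples. The Pearson r of each gene with the mean of the other 76 subunits had a median of 0.86 and was above 0.9 for 27 genes, the highest being Atp5j2 (0.99), Atp5d (0.99) and Ndufb11 (0.99). It was below 0 for 9 genes: Ndufv1, Ndufa9, Ndufs1, Atp5b, Atp5a1, Atp5s, Uqcrc2, Cox6b2 and, at the lowest, Sdha (-0.82). Among these are 5 of 12 genes on a chosen list of catalytic and structural subunits. The listed genes have a median exonic length of 2473.5 nt against 1478 nt for the other 65. The chosen list had 11 of 12 fold changes above 0 (median 0.14), and the others 59 of 65 (median 0.13). These correlations share libraries and the length trend described above, and their part in them was not tested. Outside the chain, the genes whose values were most like its mean were Tppp3 (r = 0.99), Pigt (0.99) and Rom1 (0.99) over the 6 samples. They were picked as the highest r among all other tested genes, a description with no test.

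Both pericyte-enriched relatives had a log2 fold change below 0, and neither was tested against the subunits. Cox4i2, the hypoxia-responsive form of Cox4, was at 912.4, 689.4 and 765.1 RPKM in controls and 684.6, 430.2 and 460.4 RPKM in iPCKO samples. Its iPCKO values lay below all controls, narrowly for iPCKO 1 and control 2, and it was not called (log2 fold change -0.61 ± 0.20, adjusted p = 0.079). Without iPCKO 1 it was called, at -0.82 (limma adjusted p = 0.0087). With any other sample left out it was not called, at -0.70 to -0.48 (limma adjusted p from 0.10 to 0.23). Of the summed RPKM of Cox4i1 and Cox4i2, Cox4i1 made up 14.8% ± 0.75 in controls and 22.6% ± 2.34 in iPCKO samples (SD, n = 3). Ndufa4l2 was at 468.0, 286.1 and 363.0 RPKM against 437.1, 313.4 and 284.9 RPKM, with overlapping groups (adjusted p = 0.79).

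The mitochondrially encoded subunits differed in the opposite direction. Of 13 listed, 11 were tested and all 11 had a log2 fold change below 0, with a median of -0.28; 9 were below 0 with the GC content trend removed and 10 without control 1 and iPCKO 1. Their mRNAs are translated inside mitochondria, on ribosomes without RPL22. mt-Nd5, a proton-pumping subunit of complex I, was called lower: it was at 50.5, 45.6 and 51.6 RPKM in controls and 16.3, 18.0 and 20.3 RPKM in iPCKO samples (log2 fold change -1.44 ± 0.10, limma adjusted p = 8.7e-05). mt-Nd2, at 24.7, 21.1 and 22.1 RPKM against 13.8, 15.5 and 17.8 RPKM, did not overlap but did not pass (-0.53, adjusted p = 0.016). mt-Co1, the catalytic subunit of complex IV, was at 219.3, 228.2 and 269.3 RPKM against 192.5, 202.4 and 194.9 RPKM (-0.28, adjusted p = 0.14). mt-Nd4l was listed at 0 in all samples and mt-Nd6 was below the filter.

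No other list of mitochondrial genes had a called member. Assembly factors of the complexes had a median log2 fold change of -0.054 with 14 of 44 above 0, and regulators of mitochondrial biogenesis a median of -0.006 with 4 of 13 above 0. Ppargc1a, which encodes the coactivator PGC-1alpha, was below the filter. Mitochondrial ribosomal proteins had a median of 0.038 (48 of 76 above 0), import proteins 0.074 (19 of 24), citric acid cycle enzymes 0.069 (9 of 16) and mobile carriers with their partners 0.072 (12 of 18). Mrpl52, of the mitochondrial large ribosomal subunit, was at 45.2, 30.6 and 39.3 RPKM against 64.9, 58.5 and 57.9 RPKM, the largest difference in these lists (0.67, adjusted p = 0.014), above the threshold of 0.01. It passed that threshold in 5 alternatives: with the replicate number as a block (adjusted p = 0.0051), after quantile normalization (0.0079), with sample weights (0.00063), without control 1 (0.0085) and without control 1 and iPCKO 1 (0.0080). Mrpl52 was chosen after its values were seen.

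**Figure D5:**
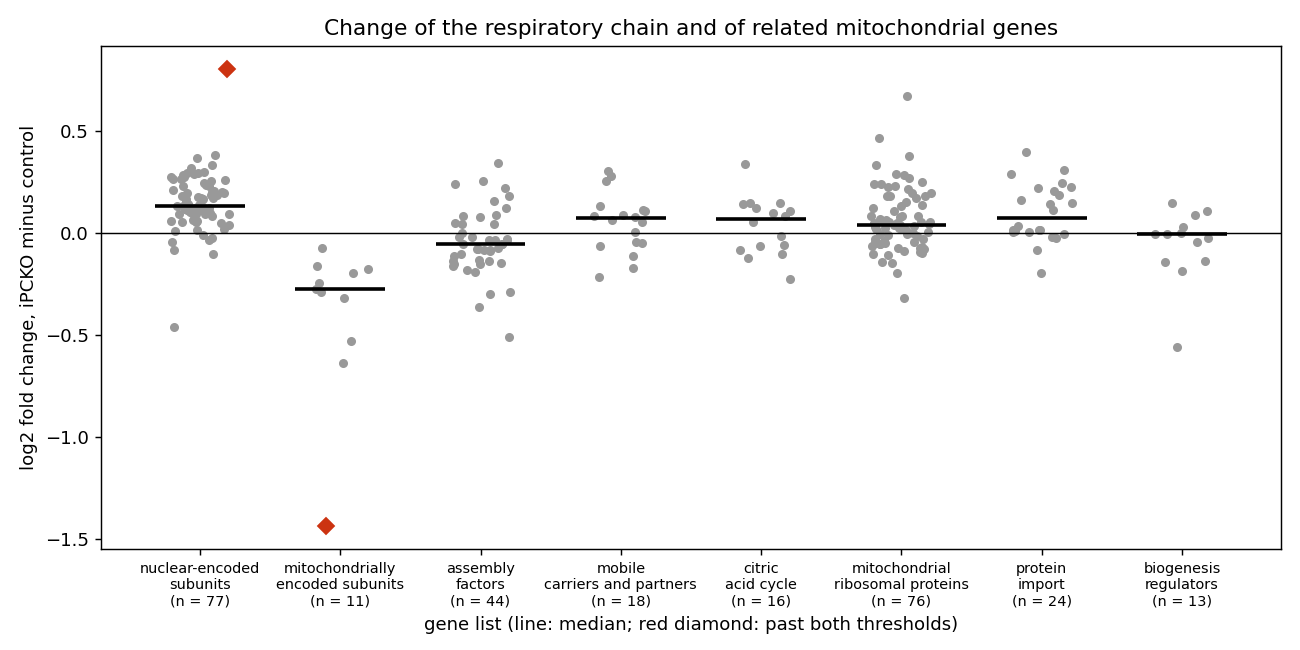
Log2 fold change (iPCKO minus control) of each tested gene of the nuclear-encoded subunits and of 7 related lists, with the median of each list as a line and called genes as red diamonds. The medians run from -0.28 for the mitochondrially encoded subunits to 0.13 for the nuclear-encoded ones, and the called genes are mt-Nd5 and Ndufs5.

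Transcripts of other cell types also differed between the groups. In RNA pulled down from whole lung, the number of cells, RNA per cell and RNA carried over into the pulldown cannot be told apart. All 10 neutrophil markers had iPCKO values above those of all controls (summed level 87.1 to 129.2 RPKM in controls and 448.9 to 4949 RPKM in iPCKO samples), as did 9 of 10 leukocyte markers (65.5 to 83.3 and 119.9 to 242.9 RPKM), 9 of 9 macrophage markers (103.6 to 175.8 and 342.3 to 551.2 RPKM) and 8 of 8 platelet markers (10.2 to 11.9 and 31.7 to 76.3 RPKM). Cardiac muscle markers, from a tissue rich in the respiratory chain, had 7 of 12 genes higher without overlap. Their summed level was 41.9 to 52.8 RPKM in controls and 69.1 to 73.7 RPKM in iPCKO samples. Nppa was at 0 in all controls. Of these 12 genes 5 were tested and 0 were called. Over all tested genes 18.3% were higher without overlap. The 7 of 12 are on an unlike base, because they include Ckm, Pln and Tnni3, which were not tested. Skeletal muscle markers summed to 2.87 to 3.25 and 1.63 to 2.74 RPKM. Among them 1 gene was higher and 1 lower without overlap, and Tnnc2 was called lower. Brown adipocyte markers summed to 2.16 to 2.76 and 2.32 to 2.35 RPKM, with 2 genes higher and 2 lower without overlap. The epithelial sum was 571.2 to 657.0 RPKM in controls and 833.4 to 884.8 RPKM in iPCKO samples. Of its 10 markers, 6 were higher without overlap and Sftpb was called higher, while Aqp5 was at 85.8% and Nkx2-1 at 91.4% of the control mean with overlapping groups. Endothelial markers summed to 143.1 to 153.8 and 148.1 to 162.4 RPKM. Among these 8 markers Kdr was called higher (13.0, 16.7 and 16.4 against 24.0, 27.9 and 26.5 RPKM, adjusted p = 0.0031), and Emcn and Erg had every iPCKO value below every control value. Smooth muscle markers summed to 1303 to 1479 and 1428 to 1567 RPKM, with Actg2 and Cnn1 called higher and the other 4 of 6 overlapping. Erythrocyte markers summed to 2222 to 2783 RPKM in controls and 1370 to 6027 RPKM in iPCKO samples, with all 7 overlapping. Fibroblast markers summed to 234.0 to 281.4 and 252.0 to 329.6 RPKM. Among these 7 markers 3 were higher and 1 lower without overlap, and 0 were called. The part of these transcripts in the differences of the subunits was not tested.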

How the data were processed

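Lung RNA bound to HA-tagged ribosomes was measured in 3 control and 3 Yap1,Wwtr1 iPCKO samples, grouped by the genotype in the labels. Per the labels and the study's methods, the authors sequenced stranded libraries of total RNA, aligned the read pairs with TopHat to the mm10 build, counted reads per gene (HTSeq 0.6.1) and tested the counts in DESeq2. They deposited RPKM per Ensembl gene, already divided by depth and length. Which exon length entered the RPKM is not given in the sources used here. Symbols, exonic lengths and coordinates came from GENCODE M21 (GRCm38), and start regions from RefSeq.

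RPKM were not scaled further. Limma 3.58.1 in R 4.3.3 was run on log2(RPKM + 0.1) (variance trended on intensity, Benjamini-Hochberg over 12034 genes), which understates the change of low genes. The script was tested on simulated data. Count tests were not used because RPKM are not counts. Between 75.9% and 77.4% of low values of single-transcript genes were within 0.02 reads of a whole number, so whole reads were not recovered for other genes and depth is only a scale.

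The members and gene lists were chosen with earlier results of these data known. The text names the called subunits, the most abundant and the most changed subunit of each complex, chosen catalytic and structural subunits, isoform genes, the deleted genes and the genes below the filter. Others were named after their values were seen. The values of 1 subunit are not reported here, and it enters the counts and medians only. Alternatives were a replicate block, other filters, pseudocounts, scalings and thresholds, trends on length and GC content removed, no intensity trend, sample weights and each sample left out. Python 3.11.15 with pandas 2.3.3 and matplotlib 3.10.9 was also used.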

Additional observations from a re-analysis of the deposited data

How the results depend on the processing

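Replicate numbers do not pair the samples by the labels, and over all tested genes same-numbered samples deviated together at r of 0.24, 0.092 and 0.022. The highest r of all pairs was that of control 2 with iPCKO 3 (0.27). A fit with the replicate number as a block gave 1 higher and 0 lower subunits, the same median of 0.13 and the same count of 70 above 0, and called Mrpl52, of the mitochondrial ribosome, higher (0.67, adjusted p = 0.0051). It changed no call among the 36 named genes compared across settings. For the subunits r of same-numbered samples was 0.43, -0.031 and 0.096, and that of control 2 with iPCKO 3 was again the highest (0.455).

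The count of higher subunits, all of it in complex I, was 0 without the filter on low values and with a log2 fold change above 1, and 0 to 1 when a sample was left out. No setting called a lower subunit. The median of the subunits ran from 0.065 with the length trend removed to 0.22 without control 1, and the count above 0 from 53 to 74. With the length trend removed the median was 0.035 for complex III and 0.10 for complex V, and the cause was not tested. Quantile normalization gave 63 above 0 and a median of 0.081, while the median of all tested genes moved to -0.032.

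Over all genes the counts of higher and lower genes were 495 and 322, and 37 and 58 without the filter, 998 and 592 with sample weights, 802 and 511 at an adjusted p below 0.05, 276 and 135 at a log2 fold change above 1, and 222 to 558 and 160 to 341 with a sample left out. With sample weights 1 assembly factor and 1 biogenesis regulator were called lower and 1 mitochondrial ribosomal gene, Mrpl52, higher. At an adjusted p below 0.05, 1 assembly factor and 2 mitochondrially encoded genes were lower and 1 mitochondrial ribosomal gene was higher. That ribosomal count was also 1 after quantile normalization and 0 to 1 with a sample left out. Without control 1 and iPCKO 1, an alternative added after seeing the data, 1 biogenesis regulator was lower and Mrpl52 higher.

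Of 36 named genes tested, 13 changed the sign of an uncalled fold change in some setting, all with an adjusted p above 0.3. With the length trend removed this gave -0.036 for Ndufb9, -0.017 for Cox8a, -0.026 for Cox6b1 and -0.035 for Ndufa4. Quantile normalization gave -0.022 for Atp5a1, -0.045 for Atp5b, -0.0068 for Ndufa4 and -0.00012 for Wwtr1. Removing the GC content trend gave -0.018 for Ndufv1, and -0.018 was also its value without control 1 and iPCKO 1. Sample weights gave 0.032 for Cox7a2l and 0.15 for Cox6b2, and Cox6b2 was at 0.14 without control 1 and iPCKO 1. With a sample left out, the lowest and highest values were -0.0093 and 0.18 for Ndufb9, -0.12 and 0.035 for Ndufa5, -0.055 and 0.0031 for Sdha, -0.19 and 0.066 for Cox6b2, -0.089 and 0.17 for Ndufa4, -0.29 and 0.074 for Ndufa4l2 and -0.029 and 0.17 for Wwtr1. Cox4i2 was called at -0.79 with the length trend removed and -0.73 with sample weights.

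Depth, inferred only as a scale, limits genes near 1 RPKM. With 3 samples a group, an exact test of a single value cannot go below p = 0.1.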
